A study of Mus musculus with 6 samples.

Results

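Kinesins are motor proteins that burn ATP to move along microtubules or to take microtubule ends apart. This account covers every gene of the mRNA-seq table whose symbol starts with Kif or Kifc and a digit, which gave 40 of the 15266 genes listed. They were divided by their known main role into 14 mitotic kinesins, 17 transport kinesins and 9 others, which are mostly kinesins of cilia and centrioles or without known motor activity. The rule for members used gene names and no measured value, but earlier results of these data were known when members and classes were chosen.

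The mRNA came from embryoid bodies (EBs), the balls of differentiating cells that mouse embryonic stem cells (mESCs) form in suspension, after 4 days (D4) in serum without LIF. Both lines derive from W9.5 mESCs. EVX1-Δfs (clone 14) carries small frameshift deletions on both alleles in the homeodomain region of *Evx1*, a transcription factor gene of the primitive streak, and its antisense partner *Evx1as* is left in place. Del#3 (Evx1/Evx1asΔ2.6kb) lacks a stretch of 2.6 kb at the start of both genes, so both groups lack functional EVX1 and neither is wild type. EVX1-Δfs is 1 clone, and how many clones gave the Del#3 libraries is not given in the sources used here. There were 3 libraries per line, numbered 1 to 3. The sources say that lines to be compared were differentiated together and that replicates were started on separate days, but none ties a number of one line to the same number of the other.

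The recovered reads per library ranged from 9024579 to 15699124, and both replicate 1 libraries were deeper than the other 4. *Evx1* had 4023, 3132 and 2582 reads in EVX1-Δfs libraries 1 to 3, against 48, 28 and 31 in Del#3. *Evx1as* had 879, 588 and 571 reads in EVX1-Δfs, against 21, 22 and 30 in Del#3. These reads match the Del#3 labels, and they do not check the frameshift of EVX1-Δfs. Of 7 primitive streak and mesoderm genes, *Eomes*, *Kdr*, *T*, *Mesp1* and *Mixl1* had 422 to 4027 normalized counts in every library, and *Tbx6* and *Msgn1* had 23.1 to 71.6. Of 8 neural genes, *Stmn2*, *Tubb3*, *Nefl* and *Nefm* had 60.9 to 1881 in every library, and *Sox1*, *Dcx*, *Neurod1* and *Map2* stayed at or below 36.7. Normalized counts are reads divided by a size factor of the library, as the authors deposited them. The replicates are separate differentiations of the same lines, so p-values measure the spread between differentiations and not between independent clones.

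Kinesins share a motor domain that binds ATP and microtubules. Mitotic kinesins build the spindle, move chromosomes and finish cell division, and their mRNAs are typically high in cells that divide fast, such as early embryonic cells. Transport kinesins carry vesicles, organelles and the building parts of cilia along microtubules, and many of them are best known from neurons. Role and family do not coincide: the kinesin-3 family, for example, holds carriers of vesicles and the midbody protein of *Kif14*.

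Within the motor domain lies the P-loop, which holds the phosphates of ATP and is found in many other ATPases and GTPases too. It is shown here because a match was found in every member. In GENCODE coding sequences of NCBIM37 (mm9), a script searched for a glycine codon, any 4 codons, a glycine codon, a lysine codon and a serine or threonine codon. All 40 members had such a stretch. The sequences below are coding strand, 5′ to 3′, with the 8 codons of the P-loop in capitals and 9 bases on each side.
Kif11: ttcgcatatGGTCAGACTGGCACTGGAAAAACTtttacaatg
Kif15: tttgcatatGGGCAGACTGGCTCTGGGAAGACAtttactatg
Kif22: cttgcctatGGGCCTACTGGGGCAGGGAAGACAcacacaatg
Kif2c: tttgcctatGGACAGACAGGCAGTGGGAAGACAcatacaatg
Kif20b: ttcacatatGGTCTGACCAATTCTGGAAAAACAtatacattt
Kifc1: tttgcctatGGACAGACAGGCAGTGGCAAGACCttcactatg
Kifc5b: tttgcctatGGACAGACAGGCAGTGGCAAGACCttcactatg
Kif1c: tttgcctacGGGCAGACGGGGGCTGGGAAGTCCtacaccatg
Kif3a: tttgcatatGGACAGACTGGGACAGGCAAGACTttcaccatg
Kif5c: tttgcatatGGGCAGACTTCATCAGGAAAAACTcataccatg
Kif21a: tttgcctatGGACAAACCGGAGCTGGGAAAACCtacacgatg
Kif26a: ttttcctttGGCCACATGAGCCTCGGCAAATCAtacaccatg
Kif26b: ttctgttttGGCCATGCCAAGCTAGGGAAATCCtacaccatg

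Among the 38 members whose sequences were compared, the fourth codon coded for glycine in 33. The exceptions included both kinesin-1 genes compared, *Kif5a* and *Kif5c*, then *Kif20b*, and *Kif26a* and *Kif26b*, kinesins described as lacking motor activity. The last codon coded for threonine in 28 and for serine in 10. All 7 genes of the kinesin-3 family had serine there, among them the transport genes *Kif1a*, *Kif1b* and *Kif1c* and the mitotic gene *Kif14*. The P-loop began between 5.22% and 63.8% of the way along the coding sequence, with a median of 11.6%. It lay late in *Kifc1* (61.0%), *Kifc2* (61.4%) and *Kifc3* (63.8%), which carry the motor at the C-terminal end and walk toward microtubule minus ends. It lay near the middle in *Kif2a* (42.0%) and *Kif2c* (47.7%), which depolymerize microtubules.

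*Kifc1* and *Kifc5b* are nearly the same gene. Their coding sequences were identical at 98.4% of aligned bases, and their P-loop stretches printed above are letter for letter the same. Reads of these 2 genes could have been divided between them by the mapping, so their separate values are uncertain. The next closest pairs tested were much less alike, at 73.3% for *Kif5a* with *Kif5c* and 71.6% for *Kif1a* with *Kif1b*.

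All 40 members are annotated as protein-coding, and the values cover all exons of a gene. On NCBIM37, *Kif22* lies at chr7:134171246-134185934 on the minus strand, *Kif1c* at chr11:70514050-70545466 on the plus strand and *Kif20b* at chr19:34996848-35050221 on the plus strand. *Kif11* lies at chr19:37450893-37496349 and *Kif15* at chr9:122860199-122927843, both on the plus strand, and *Kif21a* at chr15:90763707-90880382 on the minus strand.

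To compare levels between genes, reads were scaled to the library's total and to the length in kb of all annotated exons joined (RPKM). The order of genes depends on this length. By mean normalized count, *Kif20b* (141) was below *Kif18a* (155) and *Kif14* (164). The normalized counts of *Kif22* (lowest library 1872) and *Kif20a* (highest library 2147) overlapped. The highest kinesin was *Kif22*, the chromokinesin Kid that pushes chromosome arms toward the spindle equator, with 109 ± 16.3 RPKM (SD, n = 6 libraries). Its lowest library, 87.6 RPKM, was above the highest of the next gene. That gene was *Kif20a*, which brings the chromosomal passenger complex to the central spindle, with 42.5 ± 9.48 RPKM (SD, n = 6 libraries). After this step, the library ranges of all neighbouring genes in the order of the 40 levels overlapped.

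The next mitotic genes were *Kif2c*, the centromere depolymerase MCAK, at 38.3 ± 4.96 RPKM, and *Kif23*, a subunit of the centralspindlin complex of cytokinesis, at 26.2 ± 7.97 RPKM (SD, n = 6 libraries each). *Kifc1*, which focuses spindle poles, was at 20.1 ± 1.74 RPKM and *Kif18b*, which shortens astral microtubules, at 17.7 ± 2.97 RPKM (SD, n = 6 libraries each). Spindle genes of medium level were *Kif11*, the Eg5 motor that slides spindle microtubules apart, at 10.3 ± 6.83 RPKM and *Kif4*, a chromokinesin, at 10.2 ± 3.40 RPKM (SD, n = 6 libraries each). *Kif15*, which helps to keep the spindle bipolar, was at 8.07 ± 4.33 RPKM (SD, n = 6 libraries). *Kifc5b*, the near copy of *Kifc1*, was at 6.60 ± 1.30 RPKM, *Kif2a*, a depolymerase of spindle poles, at 2.64 ± 1.65 and *Kif20b* at 2.47 ± 2.83 RPKM (SD, n = 6 libraries each). The lowest mitotic genes were *Kif14*, which acts at the midbody, at 1.80 ± 0.98 RPKM and *Kif18a*, which dampens chromosome movements, at 1.47 ± 0.91 RPKM (SD, n = 6 libraries each).

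Transport kinesins were led by *Kif1c*, a carrier of dense core vesicles and integrins, with 22.0 ± 3.86 RPKM (SD, n = 6 libraries). The motor of intraflagellar transport is a pair of *Kif3a* and *Kif3b* products, which were at 13.03 ± 5.94 and 9.19 ± 1.63 RPKM (SD, n = 6 libraries each). *Kif1a*, known as a carrier of synaptic vesicle precursors, was at 12.03 ± 3.15 RPKM (SD, n = 6 libraries), next after *Kif3a* in its class. *Kifc3*, a minus-end motor of epithelial junctions, was at 11.04 ± 0.89 RPKM (SD, n = 6 libraries).

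The 3 conventional kinesin heavy chains gave *Kif5c* 4.18 ± 1.23, *Kif5b* 4.12 ± 3.53 and *Kif5a* 1.35 ± 0.63 RPKM (SD, n = 6 libraries each). *Kif5b* is usually described as the ubiquitous form and the others as neuronal, and here the ranges of *Kif5b* and *Kif5c* overlapped. The remaining transport kinesins formed a continuous series. *Kif21b*, which slows microtubule growth in dendrites, was at 5.17 ± 1.86 RPKM, *Kif1b*, a carrier of mitochondria, at 4.36 ± 1.27 RPKM and *Kif13a* at 4.09 ± 1.20 RPKM (SD, n = 6 libraries each). *Kif3c*, *Kif16b*, a carrier of early endosomes, *Kif21a* and *Kif13b* had means of 3.57, 3.41, 2.76 and 2.49 RPKM, and *Kifc2*, a minus-end motor of neurons, had 1.21 RPKM. *Kif17*, a dendritic and ciliary motor, had 5, 5 and 8 reads in EVX1-Δfs and 4, 0 and 5 in Del#3. Its 0 reads in Del#3 replicate 2 allow up to 0.308 RPM (3 counts of the library's reads, for counting error only).

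Of the other kinesins, *Kif7*, a ciliary tip kinesin of Hedgehog signalling, was highest at 12.3 ± 1.36 RPKM (SD, n = 6 libraries). It was followed by *Kif26a* at 5.63 ± 1.19 and by *Kif24*, a centriole kinesin that restrains cilia, at 3.10 ± 0.40 RPKM (SD, n = 6 libraries each). Within this class, the library ranges of these 3 genes did not overlap. *Kif12*, an epithelial kinesin, was at 1.15 ± 0.34 RPKM and *Kif26b* at 0.61 ± 0.21 RPKM (SD, n = 6 libraries each). The kinesins of motile cilia, *Kif9*, *Kif27*, *Kif6* and *Kif19a*, were all low, at means of 0.46, 0.34, 0.24 and 0.18 RPKM. *Kif19a* had 4 to 16 reads per library and, like *Kif17*, failed the filter on low counts, which 38 members passed. Markers of motile cilia were also low, with the list of 4 genes found in the table summing to 10.1 to 14.2 RPM, and *Foxj1*, their main regulator, at 48.6 to 109 normalized counts.

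**Figure D1:**
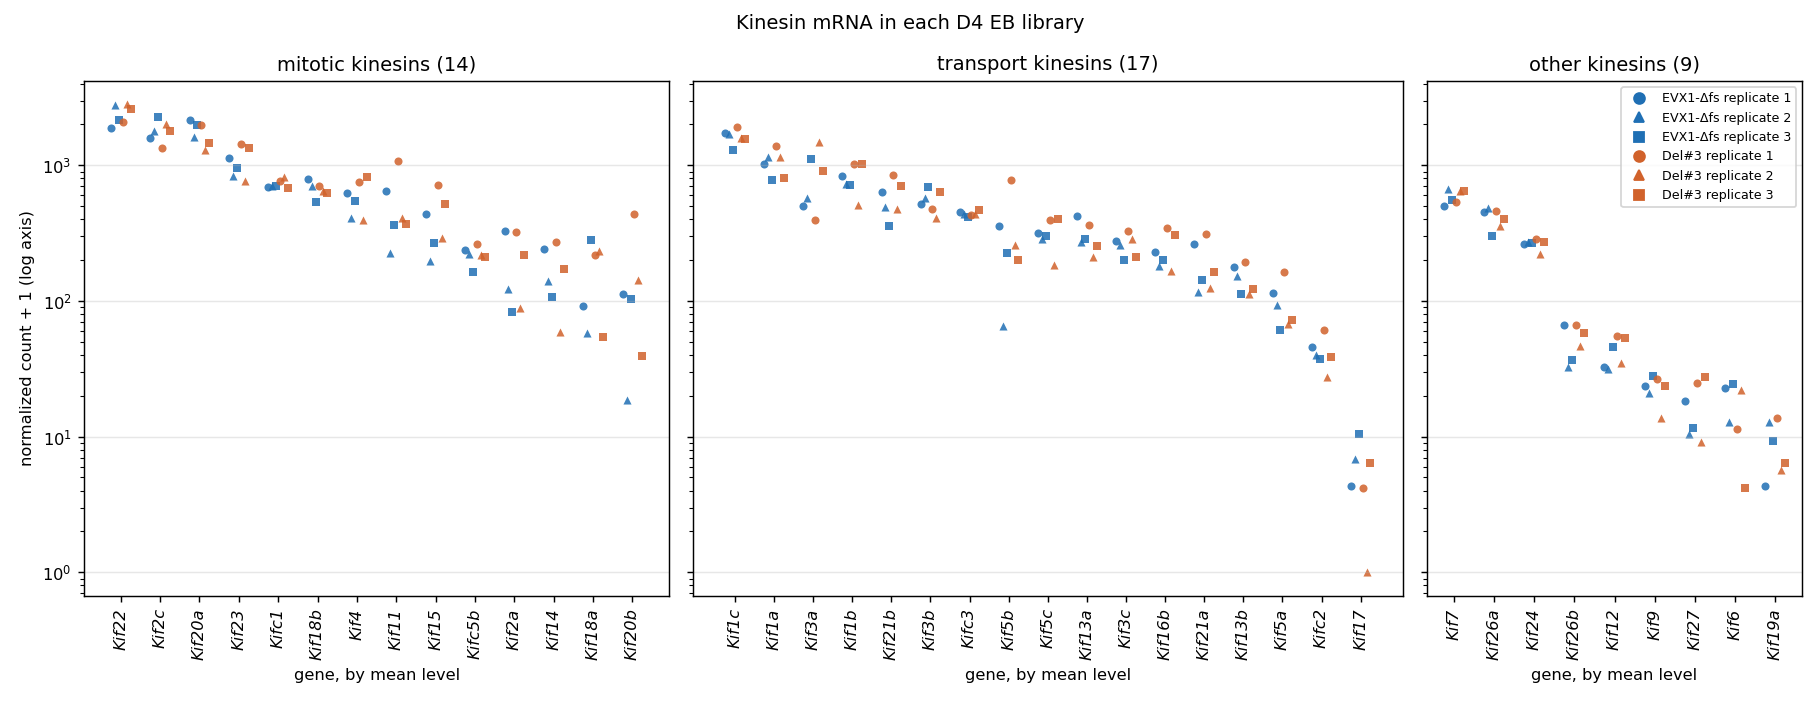
Normalized counts plus 1 (log axis) of the 40 kinesin genes in each of the 6 libraries, by class and ordered by mean level, with colour for the line and symbol for the replicate. *Kif22* and *Kif1c* head their classes, and *Kif20b*, *Kif5b* and the scarcely read *Kif17* show the widest scatter between libraries on this axis, while *Kifc1*, *Kifc3* and *Kif24* show little.

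The classes were next compared as summed RPM, reads scaled to the library's total. Mitotic kinesins summed to 1054, 926 and 935 RPM in the EVX1-Δfs libraries 1 to 3 and to 1271, 899 and 1040 RPM in Del#3. Transport kinesins summed to 761, 675 and 616 RPM in EVX1-Δfs and to 967, 661 and 751 RPM in Del#3. In both classes Del#3 replicate 1 was the highest library and Del#3 replicate 2 fell within or below the EVX1-Δfs libraries, so the lines overlapped.

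Mitotic kinesins averaged 972 ± 71.5 RPM in EVX1-Δfs against 1069.98 ± 188 RPM for Del#3 (SD, n = 3 each), or 110% of the former. For transport kinesins the means were 684 ± 73.2 and 793 ± 158 RPM (SD, n = 3 each), or 116%. Without Del#3 replicate 1 these percentages were 99.8% and 103%, so the higher mitotic total of Del#3 rested on that library. The other class gave 130.4 ± 16.4 and 137 ± 16.6 RPM (SD, n = 3 each). The ratio of mitotic to transport reads varied little, from 1.31 to 1.52 over the 6 libraries, with means of 1.43 ± 0.082 in EVX1-Δfs and 1.35 ± 0.036 in Del#3 (SD, n = 3 each). In whole EBs a difference in the number of dividing cells cannot be told apart from one in RNA per cell.

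**Figure D2:**
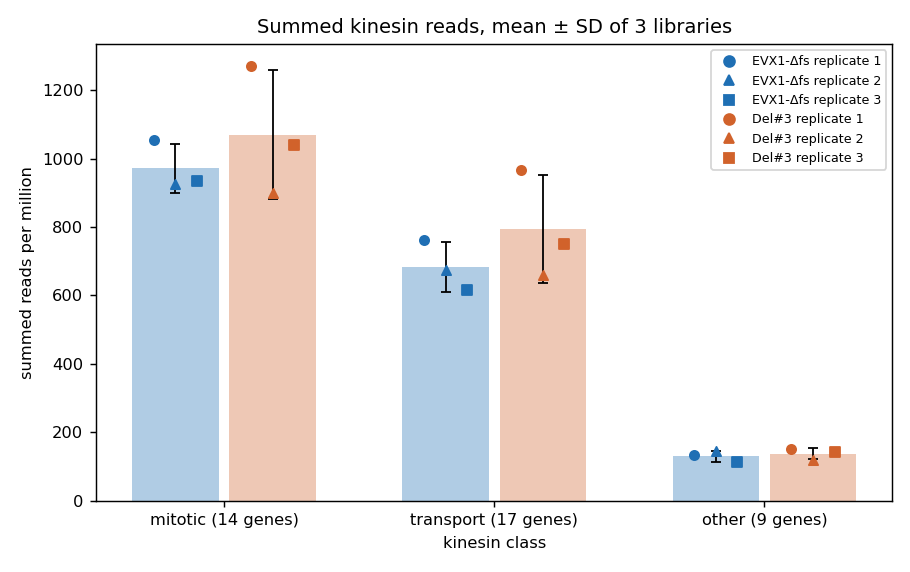
Summed RPM of each kinesin class, with bars for the mean of 3 libraries per line, error bars for the SD and a point for each library. The lines overlap in every class, and the replicate 1 library was highest in its line for mitotic and transport kinesins.

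The main comparison asks whether kinesin mRNAs differ between Del#3 and EVX1-Δfs, which both lack functional EVX1. Del#3 also lost 2.6 kb of DNA and most *Evx1* and *Evx1as* reads, so a difference could not be assigned to *Evx1as* alone. No kinesin passed the test between Del#3 and EVX1-Δfs. By limma on log2(normalized count + 1) with Benjamini-Hochberg adjustment over 12891 genes, 0 of the 38 kinesins had an adjusted p under 0.05, against 0.0155% of all genes. At an unadjusted p under 0.05, limma called 0 kinesins and 1.03% of all genes. DESeq2 and edgeR on the recovered reads likewise gave 0 adjusted and 0 unadjusted calls among kinesins. Over all 12891 genes, DESeq2 gave 3 adjusted and 171 unadjusted calls, and edgeR gave 2 and 144. In 0 kinesins were the libraries of the lines fully apart, against 3.51% of all genes.

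A limma fit blocked on the replicate number called 0 kinesins, against 0.0233% of all genes, and 3 kinesins, *Kif15*, *Kif5b* and *Kif11*, had an unadjusted p under 0.05 (7.89%), against 4.62% of all genes. The numbers are not shown to pair the lines.

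Differences on the log2 scale ran from -0.92 for *Kif6* to 1.17 for *Kif20b*. Of the 38, 26 (68.4%) were above 0, that is higher in Del#3, beside 50.4% of all genes. The median was 0.20 for mitotic, 0.098 for transport and 0.045 for other kinesins, beside 0.0022 for all genes. The count above 0 was 27 with TMM factors (71.1%, beside 54.0% of all genes) and 29 with total reads (76.3%, beside 56.1%) as the scaling. It was 21 after a correction for exon length and GC content, with medians of 0.11, 0.033 and -0.050 in the 3 classes. It ran from 20 without Del#3 replicate 1, where the medians were 0.050 for mitotic, -0.048 for transport and 0.044 for other kinesins, to 31 without EVX1-Δfs replicate 1. Without EVX1-Δfs replicate 3 it was 22, with medians of 0.11, 0.0093 and 0.0062.

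The largest positive difference was that of *Kif20b*, a motor of cytokinesis. Its libraries had 112, 17.6 and 102 normalized counts in EVX1-Δfs libraries 1 to 3 and 437, 142 and 38.4 in Del#3. Replicates 1 and 2 of Del#3 exceeded every EVX1-Δfs library and replicate 3 was below 2 of them, so the lines overlapped. The log2 difference was 1.17 (SE 0.86, 95% interval -0.74 to 3.08), and the limma p was 0.203 before adjustment. It was 0.32 without Del#3 replicate 1 and 0.33 without EVX1-Δfs replicate 2, each time no longer the largest, and 2.06 without Del#3 replicate 3.

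*Kif5b*, a heavy chain of conventional kinesin, had 355, 64.5 and 224 normalized counts in EVX1-Δfs and 784, 258 and 201 in Del#3. Only Del#3 replicate 1 was above all EVX1-Δfs libraries. The log2 difference was 0.99 (SE 0.63, 95% interval -0.41 to 2.39), and it ran from 0.28 without EVX1-Δfs replicate 2 to 1.51 without EVX1-Δfs replicate 1.

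*Kif15* had 436, 195 and 267 normalized counts in EVX1-Δfs and 720.5, 289 and 517 in Del#3. Replicates 1 and 3 of Del#3 were above all EVX1-Δfs libraries, and replicate 2 lay below the highest of them, so the lines overlapped. The log2 difference was 0.75 (SE 0.39, 95% interval -0.12 to 1.61), with a limma p of 0.0827 before adjustment. It was lowest without Del#3 replicate 1, at 0.45, and highest without Del#3 replicate 2, at 1.11.

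*Kif11* had 645, 225 and 363 normalized counts in EVX1-Δfs and 1081, 405 and 370 in Del#3. Replicate 1 of Del#3 was the highest library, and the other Del#3 libraries lay among those of EVX1-Δfs. The log2 difference was 0.54 (SE 0.47, 95% interval -0.49 to 1.57), and it was 0.045 without Del#3 replicate 1 and 0.93 without EVX1-Δfs replicate 1. *Kif15* and *Kif11* both act in the bipolar spindle, and a shared cause of their differences was not tested.

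On the negative side, *Kif6*, a kinesin of motile cilia, had 21.8, 11.7 and 23.6 normalized counts in EVX1-Δfs and 10.4, 20.9 and 3.2 in Del#3. These are at most 33 reads in a library, and the lines overlapped. The log2 difference was -0.92 (SE 0.63, 95% interval -2.33 to 0.48), and it was -0.29 without Del#3 replicate 3 and -1.48 without Del#3 replicate 2. *Kif20a* gave -0.29 (SE 0.25), *Kif3b* -0.25 (SE 0.26) and *Kif13a*, a carrier of endosomes, -0.25 (SE 0.30).

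For the abundant steady members the data bound the difference. The 95% interval of *Kifc1* ran from -0.38 to 0.58, that of *Kifc3* from -0.46 to 0.53, that of *Kif1c* from -0.40 to 0.60 and that of *Kif22* from -0.39 to 0.67 on the log2 scale. The interval lay within a 2-fold change either way for 21 of 38 kinesins (55.3%), beside 61.1% of all genes. For the rest, among them *Kif20b*, *Kif18a*, *Kif5b*, *Kif6* and *Kif27*, a 2-fold difference lay inside the interval.

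**Figure D3:**
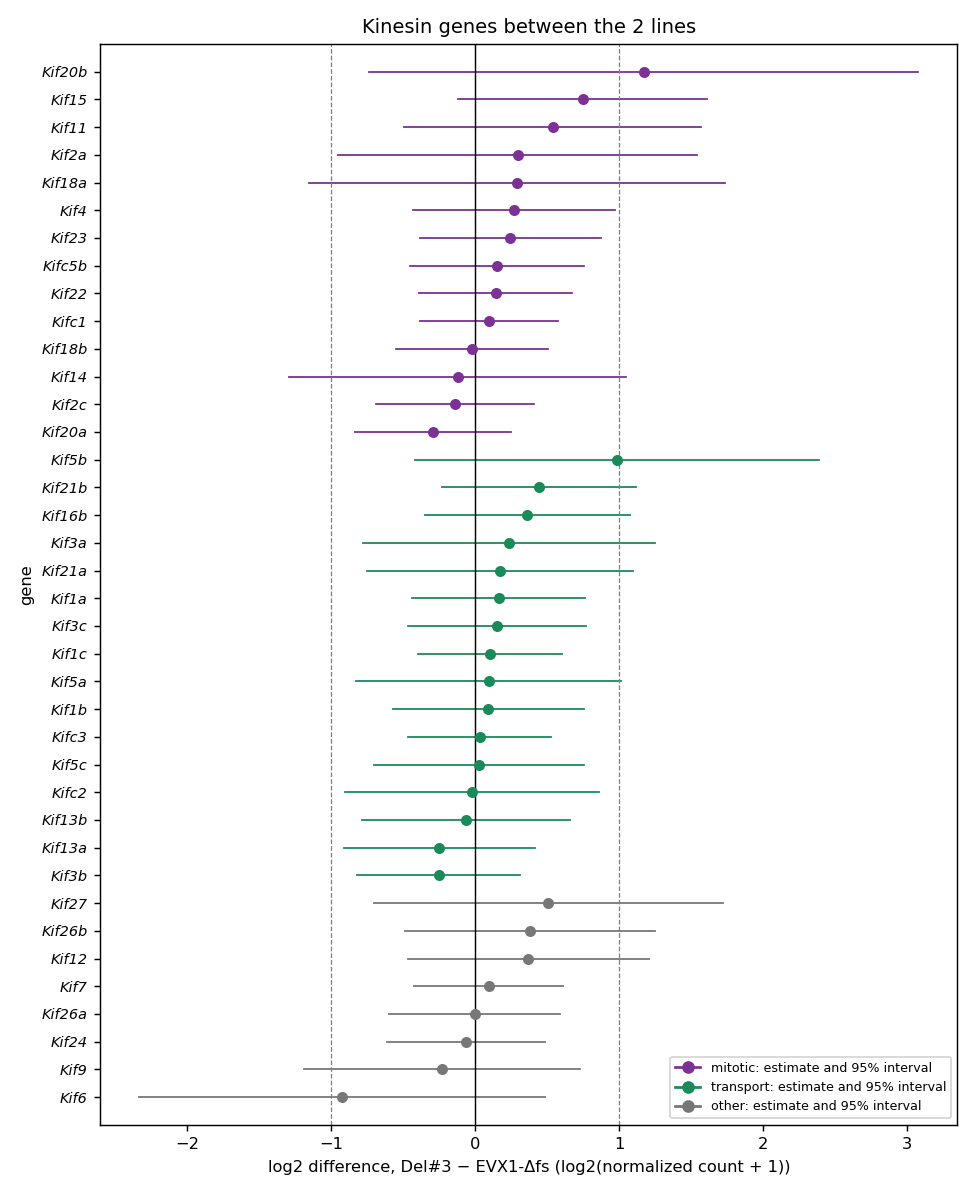
Log2 difference between Del#3 and EVX1-Δfs for the 38 kinesins that passed the filter, with the 95% interval of limma as a line, the estimate as a filled point, and dashed lines at a 2-fold change. Every interval crosses 0, and the intervals of *Kif20b*, *Kif18a*, *Kif5b* and *Kif6* are the widest.

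The libraries were also compared by replicate number, with same-numbered libraries of the lines grouped. If the numbers do not mark the same day in both lines, the values of this comparison would change. In a sum of squares of log2 values, the replicate number, which takes more degrees of freedom than the line, held a median of 65.2% over the kinesins, the line 10.1% and the remainder 20.3%. Over all genes these medians were 64.4%, 6.70% and 21.2%. An F test of the replicate number in limma, with the line in the model, called 3 of 38 kinesins at an adjusted p under 0.05 (7.89%), against 4.24% of all genes. They were *Kif11* (adjusted p = 0.0383), *Kif15* (adjusted p = 0.0438) and *Kif21a* (adjusted p = 0.0484), all by limma with Benjamini-Hochberg adjustment.

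Some or all of these calls were lost with another scaling, with a length and GC correction or without a replicate 1 library. With TMM factors or total reads as the scaling, *Kif11* alone remained called, 2.63% of the kinesins, beside 2.59% and 2.46% of all genes, so that the kinesins were then at the share of all genes. After each library was corrected for exon length and GC content, 0 kinesins were called, while 1.46% of all genes were, and *Kif11* then had an adjusted p of 0.0843. With 1 library left out, the library left alone with its number was assumed to vary like the rest. The test then called 1 kinesin, *Kif5b* (2.63%, beside 1.64% of all genes), without Del#3 replicate 1. It called *Kif20b*, *Kif3a* and *Kif5b* (7.89%, beside 1.505% of all genes) without EVX1-Δfs replicate 1. The count was 5 (13.2%, beside 11.6% of all genes) without Del#3 replicate 2 and 10 (26.3%, beside 25.2%) without Del#3 replicate 3. It was 11 (28.9%, beside 17.1%) without EVX1-Δfs replicate 2 and 10 (26.3%, beside 19.0%) without EVX1-Δfs replicate 3. In these last 4 cases *Kif11*, *Kif15* and *Kif21a* were among those called, and calls over all genes rose as well.

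In the 3 called genes the replicate 1 libraries were the high ones. The values of *Kif21a*, which slows microtubule growth and moves in axons, were 264, 115 and 143 normalized counts in EVX1-Δfs and 312, 123 and 162 in Del#3. The lower of the replicate 1 libraries was well above the highest of the other 4. The counts of *Kif11* and *Kif15* given above show replicate 1 as the highest library within each line too, by 1.33 and 0.92 on the log2 scale against the mean of the other replicates.

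Over the 38 kinesins, replicate 1 exceeded the mean of the other replicates in 33 (86.8%), with a median of 0.36 on the log2 scale. Over all 12891 genes tested it did so in 52.4%, with a median of 0.037. With total reads as the scaling, the median of all genes moved to 0.15 and that of the kinesins to 0.47, and the count of 33 was the same with that scaling and with TMM factors. Corrected for exon length and GC content, 30 of 38 were higher in replicate 1, with a median of 0.28 beside 0.060 for all genes with a length. With the correction the median went from 0.396 to 0.434 in mitotic, from 0.401 to 0.272 in transport and from 0.251 to 0.237 in other kinesins. Members share libraries and are not replicates, and the greater depth of the replicate 1 libraries moves with this pattern, a part that was not tested.

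Some kinesins went the other way. *Kif3a* had 504, 578 and 1105 normalized counts in EVX1-Δfs and 395, 1479 and 904 in Del#3, so replicate 1 was its lowest in each line, by 1.11 below the other replicates on the log2 scale. *Kif2c* and *Kif22* were lower in replicate 1 by 0.42 and 0.38. The partner of *Kif3a* did not follow it so far: *Kif3b* had 518, 578 and 689 in EVX1-Δfs and 472, 410 and 630 in Del#3.

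Libraries of both lines numbered 1 deviated alike in the kinesins, and those numbered 2 or 3 did not. For same-numbered libraries, the correlation of their deviations from the mean of the line across the 38 kinesins was 0.79 for replicate 1, -0.055 for replicate 2 and -0.49 for replicate 3. Over all genes these were 0.74, 0.32 and -0.053. Between different numbers it was 0.64 in the kinesins for EVX1-Δfs replicate 2 with Del#3 replicate 3, beside 0.25 over all genes. For EVX1-Δfs replicate 3 with Del#3 replicate 2 it was 0.56, beside 0.42. These are descriptions across genes that share libraries, and whether the numbers 2 and 3 mean the same day in both lines cannot be told from the sources. An example is *Kif18a*, with 90.4, 57.4 and 279 normalized counts in EVX1-Δfs and 216, 231 and 53.4 in Del#3, where replicate 3 was the highest library of one line and the lowest of the other.

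**Figure D4:**
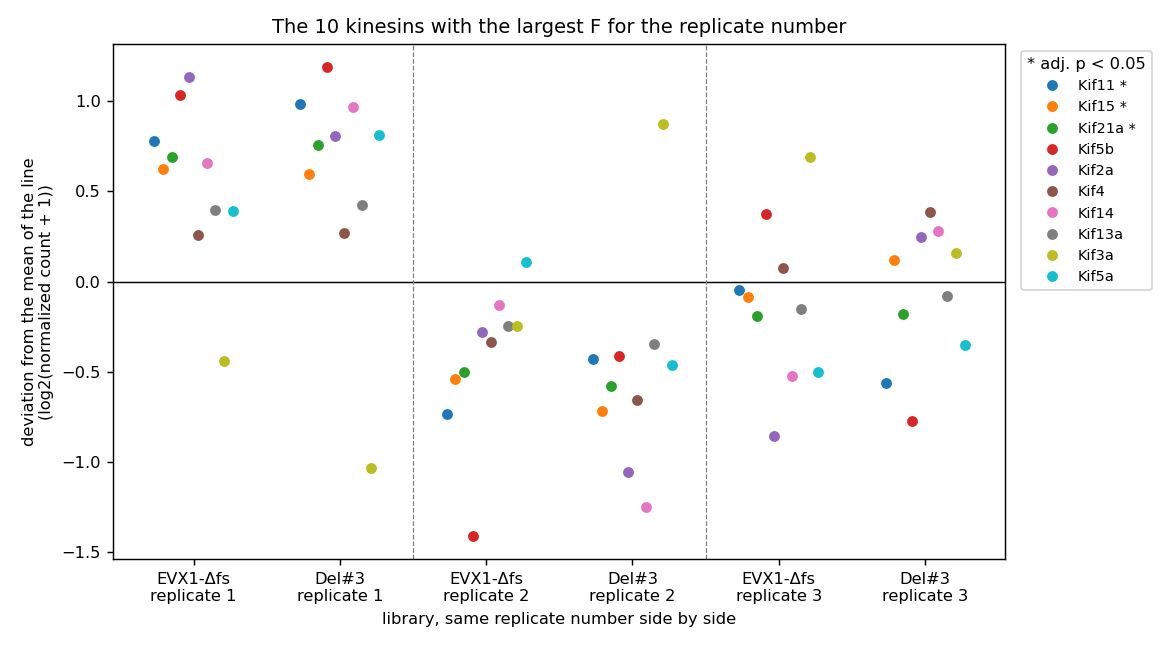
Deviation of each library from the mean of its line, on the log2(normalized count + 1) scale, for the 10 kinesins with the largest F for the replicate number, with a point per gene and library. In replicate 1, 9 of the 10 genes lie above 0 in both lines, *Kif3a* lies below it, and in replicates 2 and 3 the lines differ by gene.

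The spread between libraries differed widely from kinesin to kinesin. *Kif20b* varied 24.8-fold between its lowest and highest library, *Kif5b* 12.2-fold, *Kif6*, with few reads, 7.38-fold, *Kif18a* 5.22-fold and *Kif11* 4.80-fold. At the other end, *Kifc3* varied 1.14-fold, *Kifc1* 1.21-fold, *Kif24* 1.30-fold and *Kif7* 1.33-fold. The lowest library had 192 reads of *Kif11*, 55 of *Kif5b* and 15 of *Kif20b*, and the part of counting error in their spread was not tested.

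Several of the members that varied most had exons rich in A and T. The exons of *Kif18a*, *Kif20b*, *Kif2a*, *Kif5b* and *Kif11* had a GC content of 37.3%, 39.4%, 39.8%, 41.1% and 42.2%, and those of *Kifc3* and *Kif7* had 60.5% and 59.4%. Across the 38 kinesins, Spearman's rho of the SD within a line with GC content was -0.68, and with exon length it was 0.40. Across 12130 genes with both values, these were -0.27 and 0.077. There were exceptions on both sides. *Kif24*, with a GC content of 48.8%, was steady, and *Kif6* and *Kif14* varied at 49.99% and 46.4%. *Kifc2*, at 59.5%, had an SD within a line of 0.42, above the median of the 38 kinesins. The part of base composition in these differences was not tested.

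**Figure D5:**
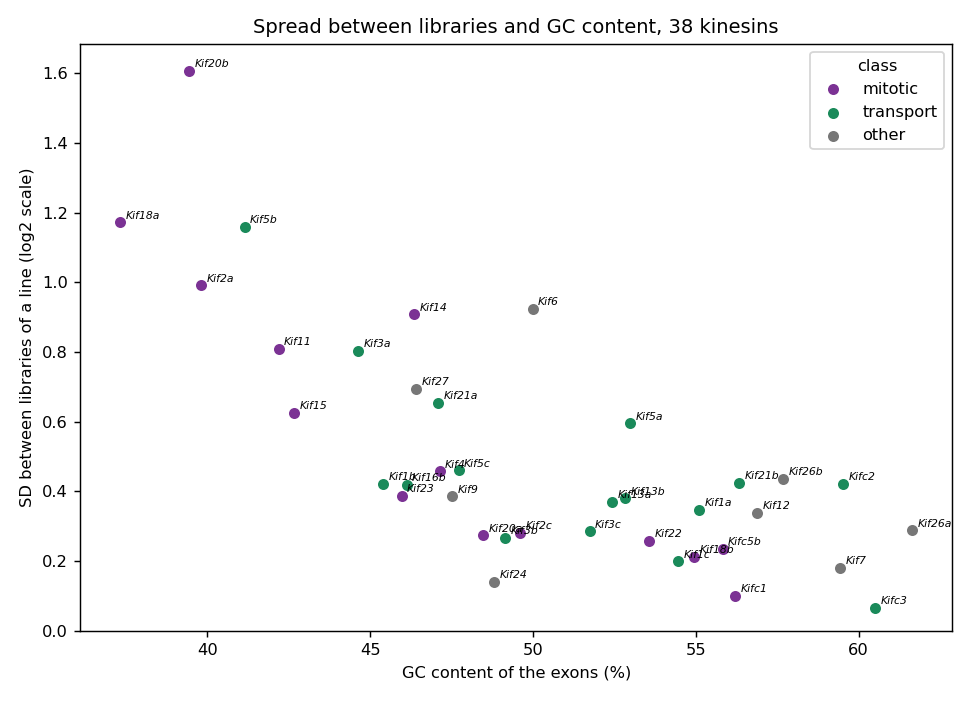
SD between the libraries of a line on the log2(normalized count + 1) scale against the GC content of the exons, in percent, for the 38 kinesins that passed the filter, coloured by class. The 3 genes of lowest GC content, *Kif18a*, *Kif20b* and *Kif2a*, are among the most variable, and of the 4 of highest GC content *Kif26a*, *Kifc3* and *Kif7* lie low while *Kifc2* lies near the middle.

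Promoters of the 3 genes called by replicate number are shown because the cell cycle element TTTGAA, known as CHR, and the CCAAT box are typical of genes switched on in G2 and M phase. They are the 250 bases before the RefSeq start (GRCm38.p6 table), placed by exact match on NCBIM37, on the gene's strand, with TTTGAA and CCAAT in capitals on either strand.
Kif11, chr19:37450622-37450871, plus strand: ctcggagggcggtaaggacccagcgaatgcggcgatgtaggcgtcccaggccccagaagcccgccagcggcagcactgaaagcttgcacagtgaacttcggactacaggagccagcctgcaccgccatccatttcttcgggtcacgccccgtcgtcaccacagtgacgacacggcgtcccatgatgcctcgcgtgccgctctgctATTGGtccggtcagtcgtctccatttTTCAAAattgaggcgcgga
Kif15, chr9:122859949-122860198, plus strand: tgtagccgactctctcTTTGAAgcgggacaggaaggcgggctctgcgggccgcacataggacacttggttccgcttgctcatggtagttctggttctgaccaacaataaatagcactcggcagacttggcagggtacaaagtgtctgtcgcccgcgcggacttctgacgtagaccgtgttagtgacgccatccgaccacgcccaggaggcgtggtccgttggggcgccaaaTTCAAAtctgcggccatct
Kif21a, chr15:90880383-90880632, minus strand: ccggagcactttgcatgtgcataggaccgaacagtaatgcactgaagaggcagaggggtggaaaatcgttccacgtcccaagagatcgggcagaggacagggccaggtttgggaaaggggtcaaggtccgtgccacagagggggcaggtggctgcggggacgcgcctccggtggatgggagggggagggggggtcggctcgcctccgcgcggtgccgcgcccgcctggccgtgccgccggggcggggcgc

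The *Kif11* promoter held 1 TTTGAA and 1 CCAAT, the *Kif15* promoter 2 TTTGAA and no CCAAT, and the *Kif21a* promoter neither. In windows from 250 bases before to 50 after the start, for the 32 members found in the table, TTTGAA on either strand lay in 11 of 14 mitotic promoters (78.6%), in 1 of 13 transport promoters (7.69%) and in 2 of 9 others (22.2%). It lay in 17.9% of all 32851 promoters of the same length. CCAAT lay in 57.1%, 30.8% and 44.4% of the 3 classes and in 37.4% of all promoters. Neither motif contains the other, and a match is not a measured binding site.

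The TTTGAA matches nearest the start in mitotic promoters are shown to let their surroundings be compared, as 30 bases of the gene's strand with the match in capitals. Where the match is on the other strand it reads TTCAAA.
Kif11, chr19:37450841-37450870, plus strand: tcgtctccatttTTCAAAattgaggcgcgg
Kif15, chr9:122860168-122860197, plus strand: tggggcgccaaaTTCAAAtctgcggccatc
Kif22, chr7:134185934-134185963, minus strand: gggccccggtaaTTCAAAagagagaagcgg
Kif23, chr9:61794587-61794616, minus strand: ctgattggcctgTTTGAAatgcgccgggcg
Kif18b, chr11:102786418-102786447, minus strand: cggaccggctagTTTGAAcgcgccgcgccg
Kif4, chrX:97821411-97821440, plus strand: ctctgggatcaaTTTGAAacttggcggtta
Kifc1, chr17:34027560-34027589, minus strand: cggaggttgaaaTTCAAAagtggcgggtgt
Kifc5b, chr17:27054053-27054082, plus strand: cggaggttgaaaTTCAAAagtgactggtgt
Kif20b, chr19:34996843-34996872, plus strand: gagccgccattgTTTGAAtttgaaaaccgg
Kif2c, chr4:116851463-116851492, minus strand: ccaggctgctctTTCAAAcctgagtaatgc
Kif14, chr1:138364185-138364214, plus strand: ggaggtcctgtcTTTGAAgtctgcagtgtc

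The matches of *Kif11*, *Kif15* and *Kif22* began 19, 19 and 17 bases before the start, and those of *Kif23*, *Kif18b* and *Kifc1* at base 3, 4 and 2 of the transcript. In *Kif2c* and *Kif14* they lay 103 and 228 bases before it. *Kif18a* and *Kif2a*, both mitotic, had none in the window.

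Several kinesins share exons with neighbours on the other strand. Exon bases shared with *Cdc23* made up 32.3% of *Kif20a*, those shared with *9330171B17Rik* 17.5% of *Kif7*, with *Dimt1* 17.4% of *Kif2a*, with *1110002L01Rik* 17.1% of *Kif3c*, with *Pdzd11* 15.1% of *Kif4* and with *Gm16564* 11.6% of *Kif26b*. In the other members with such a neighbour the share was at most 7.44%. Counting at HTSeq's standard settings uses strand, and whether the libraries kept it was not checked here, so the values of these genes may include reads of their neighbours.

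The partners of mitotic kinesins are shown for comparison. Of 34 spindle and cytokinesis genes tested, 0 passed the limma threshold between the lines, beside 0.0155% of all genes. For the replicate number 0 passed, beside 4.24% of all genes. Their median log2 difference between the lines was 0.071, with 20 above 0. The kinetochore motor gene *Cenpe*, a kinesin by its protein but not by its symbol, had 229, 58.6 and 448 normalized counts in EVX1-Δfs and 999, 599 and 199 in Del#3. Like *Kif20b* and *Kif18a*, it had its lowest Del#3 library in replicate 3 and its lowest EVX1-Δfs library in replicate 2. *Aurkb*, the kinase that travels with *Kif20a*, was steady at 678 to 971 normalized counts over the 6 libraries.

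Of the 25 light chains and cargo adaptors listed, 21 were tested, 0 passed the test between the lines, and the test of the replicate number called 1, *Kidins220*, a membrane cargo of *Kif5* motors, where it called 4.24% of all genes. It had 303, 102 and 143 normalized counts in EVX1-Δfs and 337, 90.6 and 170 in Del#3, with replicate 1 the highest library of each line. *Kifap3*, the cargo adaptor of the *Kif3a* and *Kif3b* motor, had 364, 152 and 211 in EVX1-Δfs and 343, 203 and 222 in Del#3, which is not the order of *Kif3a*. The light chains *Klc1* and *Klc2* stayed within 424 to 596 and 481 to 541 normalized counts. Of 23 dynein and dynactin genes tested, the minus-end motor that works against kinesins, 0 passed either test. Over all genes, 0.0155% passed the test between the lines and 4.24% that of the replicate number.

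Markers of proliferation moved with the replicate 1 libraries in part. *Top2a*, a topoisomerase of dividing cells, was called by the replicate number in limma (adjusted p = 0.0225) and had 3732, 689 and 1536 normalized counts in EVX1-Δfs and 6248, 1506 and 1915 in Del#3. *Mki67* had 771, 229 and 1063 in EVX1-Δfs and 4541, 1411 and 669 in Del#3. *Mcm2* and *Mcm5*, helicase genes of replication, were instead lower in replicate 1, by 0.51 and 0.73 on the log2 scale. The list of 9 proliferation markers summed to 3580 to 3801 RPM in EVX1-Δfs and 3524 to 4283 RPM in Del#3, with 0 called between the lines, and its part in the kinesin values was not tested.

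Markers of other cell types showed no call between the lines or by replicate number, beside 0.0155% and 4.24% of all genes. Their summed levels in EVX1-Δfs and in Del#3 were 202 to 240.2 and 175 to 225 RPM for 8 neural genes, 814 to 937 and 596 to 928 RPM for 6 pluripotency genes, and 739 to 863 and 623 to 789 RPM for 7 primitive streak and mesoderm genes. For 7 endoderm genes they were 355 to 412 and 303 to 364 RPM, for 4 blood and endothelial genes 65.2 to 118 and 72.3 to 130.3 RPM, and for 4 fibroblast genes 37.7 to 60.1 and 47.6 to 70.1 RPM. The blood and endothelial list was highest in the replicate 1 library of each line, as most kinesins were. The same held for 2 lists that are not cell type markers. Replicate 1 of EVX1-Δfs and of Del#3 had 4114 and 4762 RPM of the spindle and cytokinesis list. For the dynein and dynactin list these were 2566 and 2551 RPM. None of the markers in the table was at 0 in all libraries.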

How the data were processed

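mRNA-seq of D4 EBs gave 3 libraries of each of 2 lines. Ion Proton reads had been aligned by the authors to mm9, first by TopHat2 and then by TMAP. HTSeq gave counts per gene and DESeq2 served for testing, both at standard settings (versions not given in the sources used here). The deposited signal values are counts divided by a size factor per library: 100% were whole multiples of 1 step within 0.01 of a step, so reads were recovered. Library totals on listed genes are given in the report. Of 15266 genes, 12891 passed filterByExpr of edgeR (version 4.0.16, minimum count 10). Because the values are normalized, limma (version 3.58.1, R 4.3.3) with a trend on log2(value + 1) was the main test. The count tests of edgeR and DESeq2 (version 1.42.0) on recovered reads were alternatives and called 2 and 3 genes between the lines, 0 of them kinesins. Adjustment was by Benjamini-Hochberg over all genes tested. No source says that a replicate number marks the same day in both lines, so the numbers were not taken to pair them. Alternatives were other filters, pseudocounts, scalings and tests, the replicate block, a length and GC correction (loess) and leaving out each library. Exon lengths, GC content and coding sequences are from GENCODE vM1, and alignments were made with Biopython (version 1.88). Methods were tested on simulated data.

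Named genes are the 8 members of each class with the highest mean normalized count, the 2 highest and 2 lowest differences per class, the 10 largest F values for the replicate number, and members that failed the filter or passed the threshold. *Kif18a*, *Kifc5b*, *Kif5c*, *Kif3c*, *Kif16b*, *Kif13b*, *Kifc2* and, apart from *Evx1* and *Evx1as*, all genes that are not kinesins were named outside that rule. The members, classes and gene lists were chosen with earlier results of these data known. The table had 1 duplicated gene name. Sequences of 2 members, *Kif20a* and *Kif5b*, are not shown, and qPCR data were not analysed here. Intervals cover the spread between libraries, and reads are not independent molecules.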

Additional observations from a re-analysis of the deposited data

How the results depend on the processing

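No kinesin was called between the lines under any of the alternatives run, and the lowest adjusted p over the kinesins and alternatives was 0.310. With the replicate number as a block, 0 kinesins were called in limma, DESeq2 or edgeR, beside 3, 9 and 3 of all 12891 genes. The lowest adjusted p of a kinesin in limma was then 0.693. The numbers may not pair the lines. Across all genes the deviations of same-numbered libraries correlated at 0.74, 0.32 and -0.053 for replicates 1 to 3, and EVX1-Δfs replicate 3 correlated best with Del#3 replicate 2, at 0.42. The number of kinesins called by replicate number was 3 and became 1 with TMM factors or total reads (beside 2.59% and 2.46% of all genes), 6 by the DESeq2 likelihood ratio test (beside 10.1% of all genes), 0 after the length and GC correction (beside 1.46%), 5 at an adjusted p under 0.1 (beside 12.4%) and 1 to 11 with each library left out (beside 1.505% to 25.2%). It was 3 with no filter (beside 3.87% of all genes) and with at least 10 reads in every library (beside 5.52%). It was also 3 with pseudocounts 0.5 and 5 (beside 4.01% and 4.97%) and with edgeR (beside 3.58%). The cause of these changes was not tested.

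With each library left out, Del#3 as a percentage of EVX1-Δfs ranged from 99.8% to 119% for mitotic totals (110% with all libraries) and from 103% to 126% for transport totals (116%). Both were lowest without Del#3 replicate 1, where the mitotic excess of Del#3 was gone. Scaling by total reads is the reported RPM, so it gave no separate value for them.

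Of 38 kinesins, 18 kept the direction of their difference in all alternatives. Outside left-out libraries, 9 turned, some of them with scalings that also moved the median of all genes. That median was 0.0022 with the deposited values, 0.023 with TMM factors and 0.035 with total reads. *Kif14* gave 0.056 with DESeq2 and 0.081 with edgeR, and *Kif18b* 0.011 with total reads. *Kif26a* gave 0.017 with TMM factors, 0.030 with total reads and 0.017 by edgeR with the block. *Kifc2* gave 0.011 with total reads, 0.062 with DESeq2, 0.085 with edgeR and 0.034 by edgeR with the block. After the length and GC correction, with or without the block, *Kif18a* gave -0.35, *Kif1b* -0.22, *Kif2a* -0.097, *Kif7* -0.016 and *Kifc3* -0.058. With each library left out, the differences that turned ranged as follows: *Kif13b* -0.30 to 0.091, *Kif14* -0.60 to 0.50, *Kif18a* -0.19 to 0.97, *Kif18b* -0.18 to 0.10, *Kif1a* -0.014 to 0.38, *Kif1b* -0.081 to 0.43, *Kif1c* -0.030 to 0.17, *Kif21a* -0.21 to 0.52, *Kif24* -0.14 to 0.051, *Kif26a* -0.21 to 0.13, *Kif2a* -0.13 to 0.86, *Kif2c* -0.26 to 0.022, *Kif3a* -0.20 to 0.75, *Kif5a* -0.31 to 0.33, *Kif5c* -0.16 to 0.40, *Kif9* -0.42 to 0.054, *Kifc2* -0.33 to 0.25, *Kifc3* -0.0071 to 0.059 and *Kifc5b* -0.0081 to 0.26. The correction for length and GC and edgeR with the block were chosen after seeing the data. Depth limited *Kif6*, *Kif17*, *Kif19a*, *Kif9* and *Kif27*, each with under 40 reads in every library.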
